A study of Drosophila melanogaster with 9 samples.

Results

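The 20S core particle of the proteasome is the barrel in which ubiquitin-tagged proteins are degraded. It is built from stacked rings. The outer rings hold the alpha subunits, which gate the barrel and dock the regulatory particle, and the inner rings hold the beta subunits, some of which carry the proteolytic sites. In *Drosophila melanogaster* many core particle subunits have a paralog, an additional gene for the same subunit, whose expression is known to be confined largely to the male germline. The best studied of these is *Prosalpha6T*, which is needed for the late shaping of spermatids and for male fertility. The genes described here are the 10 listed testis paralogs of core particle subunits, chosen by gene symbol with synonyms resolved. They were 10 of 11953 genes that could be read from a probe set with 1 symbol, and each of the 10 had exactly 1 probe set. The paralogs of alpha subunits were *Prosalpha3T*, *Prosalpha4T1*, *Prosalpha4T2* and *Prosalpha6T*. Those of beta subunits were *Prosbeta2R1*, *Prosbeta2R2*, *Prosbeta4R1*, *Prosbeta4R2*, *Prosbeta5R1* and *Prosbeta5R2*. They stand for 6 positions of the particle, 4 of which have a pair of paralogs.

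Total RNA of whole adult testes was hybridised to Affymetrix arrays, with 3 arrays for each of 3 genotypes. *Nxt1* testes carried the alleles *Nxt1*[z2-0488] and *Nxt1*[DG05102] over each other in a *w* background, in flies grown at 25°C. The first allele is described in the study as an amino acid substitution and the second as a P-element insertion expected to be null, so these testes may keep some Nxt1 function. *aly* testes carried *aly*[5] with the markers *red*[1] and *e*[1], in flies grown at 27°C. Control testes, described as normal in the labels, carried 1 copy each of an RNAi construct against *tin* and of *bamGal4VP16*, a driver active in early germ cells, in a *w* background at 29°C. Nxt1 is a partner of the mRNA export receptor. Aly belongs to tMAC, a complex that switches on transcription in primary spermatocytes, the cells that prepare for meiosis. Testes of both mutants stop before the meiotic divisions and lack spermatids. Culture temperature and genotype changed together and cannot be told apart, and the same holds for the batch of arrays if those of *Nxt1* were made later, as the study's use of existing *aly* and control data may mean. The labels do not say that the arrays of a genotype came from separate cultures, so p-values measure the spread between these arrays, which may be technical.

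Signals are the authors' linear RMA intensities. RMA corrects background, gives the arrays like distributions and joins the probes against a transcript into 1 value, that of a probe set. The median signal of an array was 98.4 to 109.5, and arrays of a genotype correlated at 0.990 to 0.997 on the log2 scale. A probe set passed the test at a limma adjusted p under 0.05, over 18769 probe sets. Differences are of mean log2 signals, mutant minus control or *Nxt1* minus *aly*. The signals of different probe sets are not on a common scale, so no gene is said to be more abundant than another.

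All 10 testis core particle genes were lower in *Nxt1* than in control testes, and all 10 were lower in *aly* than in control testes, under each scaling tried. Among all probe sets, 24.2% were lower in *Nxt1* and 20% were lower in *aly* testes by the same test. The median difference of the 10 genes was -1.77 in *Nxt1* testes, where the median of all probe sets was -0.01, and -4.40 in *aly* testes, where it was 0.21. For each of the 10 genes the 3 arrays of either mutant lay below the 3 control arrays. Among all probe sets, 32.1% had this arrangement in *Nxt1* testes and 20.8% in *aly* testes. In whole testes, fewer cells of a type and less RNA per cell cannot be told apart.

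**Figure D1:**
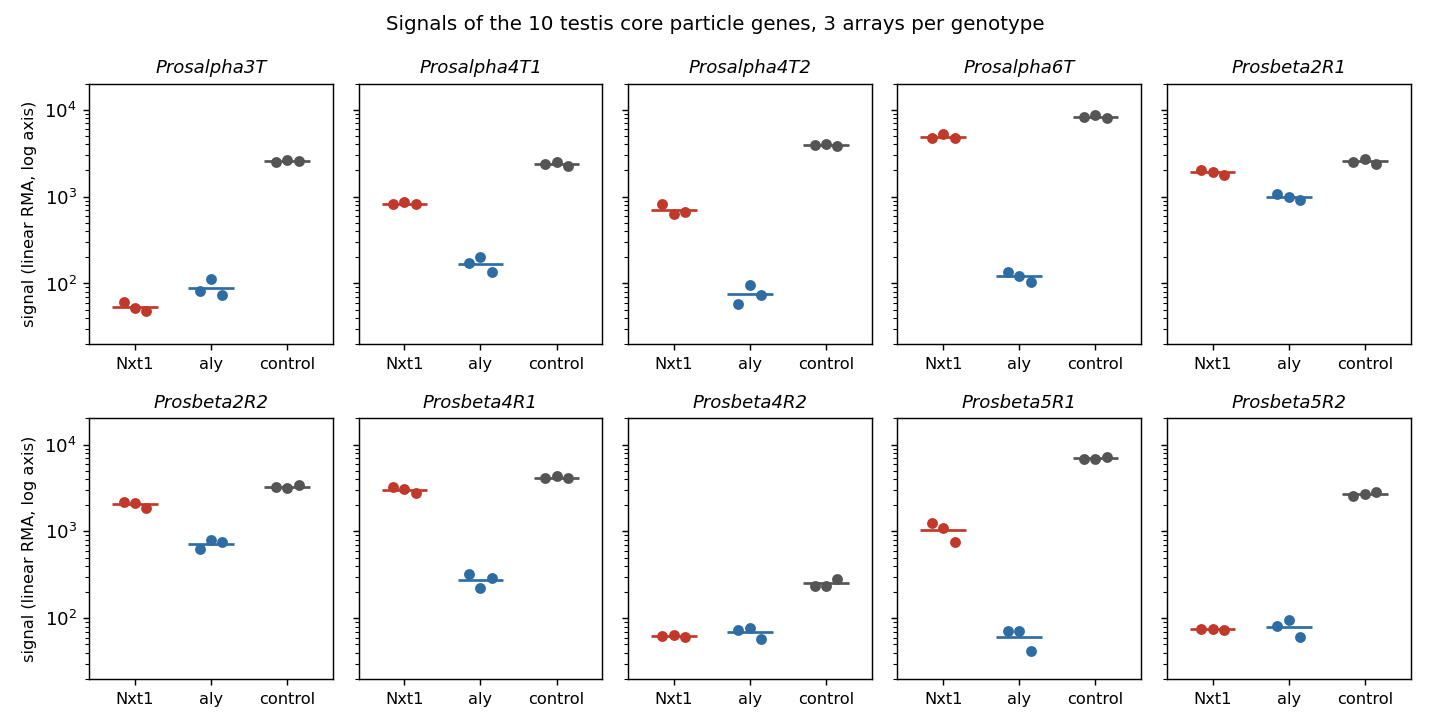
Signal (linear RMA intensity, log axis) of each of the 10 testis core particle genes on 3 *Nxt1*, 3 *aly* and 3 control arrays, with points for arrays and lines for group means. Every mutant point lies below the control points of its panel, and 7 of the 10 genes have higher points in *Nxt1* than in *aly* testes.

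The alpha subunit paralogs differed widely among themselves in *Nxt1* testes. *Prosalpha3T* had signals of 61.4, 52.7 and 48.1 in *Nxt1* testes and 81.2, 113.6 and 74.1 in *aly* testes, against 2537, 2637 and 2557 in control testes. It was low in both mutants, with all 3 *Nxt1* arrays and 2 of 3 *aly* arrays below their own array median. The log2 difference was -5.58 (SE 0.15, adjusted p = 9.6e-10) in *Nxt1* and -4.87 (SE 0.15, adjusted p = 1.13e-09) in *aly* testes, or 47.9 and 29.3 fold lower than control. *Prosalpha6T* had signals of 4688, 5302 and 4742 in *Nxt1* testes and 136.8, 122.1 and 104.0 in *aly* testes, against 8241, 8713 and 8039 in control testes. It kept 58.9% of its control signal in *Nxt1* and 1.44% in *aly* testes. The differences were -0.76 (SE 0.11, adjusted p = 0.000128) and -6.11 (SE 0.11, adjusted p = 3.37e-11). Of the 4 alpha paralogs it fell least in *Nxt1* testes.

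*Prosalpha4T1* and *Prosalpha4T2*, both paralogs of the alpha4 subunit, fell less in *Nxt1* than in *aly* testes. *Prosalpha4T1* had signals of 816.1, 868.3 and 814.0 in *Nxt1* testes and 170.3, 202.3 and 136.4 in *aly* testes, against 2384, 2534 and 2261 in control testes. *Prosalpha4T2* had signals of 819.2, 632.4 and 665.1 in *Nxt1* testes and 58.4, 94.8 and 74.3 in *aly* testes, against 3960, 4020 and 3859 in control testes. Both genes showed 3 levels that did not overlap, with *aly* lowest and control highest. The difference of *Prosalpha4T1* was -1.52 (SE 0.13, adjusted p = 2.85e-06) in *Nxt1* and -3.84 (SE 0.13, adjusted p = 1.87e-09) in *aly* testes. *Prosalpha4T2* fell more in each mutant, with -2.49 (SE 0.16, adjusted p = 3.93e-07) in *Nxt1* and -5.73 (SE 0.16, adjusted p = 5.93e-10) in *aly* testes.

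The paralogs of beta2, which carries the trypsin-like site, changed little beside most of the others. *Prosbeta2R1* had signals of 2001, 1901 and 1790 in *Nxt1* testes and 1059, 988.6 and 920.3 in *aly* testes, against 2531, 2698 and 2390 in control testes. *Prosbeta2R2* had signals of 2176, 2143 and 1877 in *Nxt1* testes and 624.8, 804.2 and 745.6 in *aly* testes, against 3208, 3198 and 3441 in control testes. The mutant arrays lay below the control arrays but far above the array medians, with *Prosbeta2R1* at 74.7% of control in *Nxt1* and 38.9% in *aly* testes and *Prosbeta2R2* at 62.8% in *Nxt1* and 22.0% in *aly* testes. The difference of *Prosbeta2R1* was -0.42 (SE 0.09, adjusted p = 0.00179) in *Nxt1* and -1.36 (SE 0.09, adjusted p = 2.12e-07) in *aly* testes. *Prosbeta2R2* differed by -0.67 (SE 0.11, adjusted p = 0.000325) in *Nxt1* and by -2.19 (SE 0.11, adjusted p = 2.80e-08) in *aly* testes.

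At beta5, the chymotrypsin-like site, the changes were large and the pair parted. *Prosbeta5R1* had signals of 1249, 1096 and 758.9 in *Nxt1* testes and 71.8, 70.4 and 41.8 in *aly* testes, against 6800, 6734 and 7209 in control testes. *Prosbeta5R2* had signals of 75.8, 74.7 and 72.8 in *Nxt1* testes and 80.9, 95.7 and 60.9 in *aly* testes, against 2569, 2664 and 2804 in control testes. *Prosbeta5R1* was still well above the array median in *Nxt1* testes and below it on all 3 *aly* arrays, whereas *Prosbeta5R2* was below it on every mutant array. *Prosbeta5R1* differed by -2.77 (SE 0.23, adjusted p = 2.15e-06) in *Nxt1* and by -6.86 (SE 0.23, adjusted p = 1.65e-09) in *aly* testes. The fall in *aly* testes was 116.0 fold, taken against signals below the array median. The spread of *Prosbeta5R1* on *Nxt1* arrays, an SD of 24.2% of the mean, was also the widest of the 10 genes in that genotype. *Prosbeta5R2* differed by -5.17 (SE 0.14, adjusted p = 9.35e-10) in *Nxt1* and by -5.10 (SE 0.14, adjusted p = 4.72e-10) in *aly* testes.

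The pair at beta4, a position without a proteolytic site, parted in the same way. *Prosbeta4R1* had signals of 3259, 3082 and 2762 in *Nxt1* testes and 323.8, 220.3 and 292.0 in *aly* testes, against 4093, 4298 and 4120 in control testes. *Prosbeta4R2* had signals of 61.7, 64.1 and 61.0 in *Nxt1* testes and 73.0, 78.2 and 57.1 in *aly* testes, against 233.1, 236.5 and 285.7 in control testes. *Prosbeta4R1* had 3 levels that did not overlap, with *aly* lowest, while the *Nxt1* and *aly* signals of *Prosbeta4R2* overlapped and were all below the array medians. *Prosbeta4R1* differed by -0.46 (SE 0.13, adjusted p = 0.0137) in *Nxt1* and by -3.92 (SE 0.13, adjusted p = 2.02e-09) in *aly* testes. Without *Nxt1* replicate 3 the first of these was -0.40 and did not pass (adjusted p = 0.0557). *Prosbeta4R2* differed by -2.01 (SE 0.13, adjusted p = 2.75e-07) in *Nxt1* and by -1.86 (SE 0.13, adjusted p = 3.74e-07) in *aly* testes. In the reference gene order (Release 6) these 2 paralogs lie on the left arm of the second chromosome on either side of the odorant receptor gene *Or23a*.

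The study calls a transcript highly dependent on a factor when it is 16 fold or more lower in the mutant, with no p-value. By this rule *Prosalpha3T* and *Prosbeta5R2* were highly dependent in *Nxt1* testes, 2 of 10 genes, against 2.59% of all probe sets. The rule was met in *aly* testes by *Prosalpha3T*, *Prosalpha4T2*, *Prosalpha6T*, *Prosbeta5R1* and *Prosbeta5R2*, 5 of 10 genes, against 5.7% of all probe sets. *Prosbeta4R1* and *Prosalpha4T1* lay just outside it in *aly* testes, at 15.2 and 14.3 fold lower. In *Nxt1* testes no gene was 8 to 16 fold lower, beside 1.66% of all probe sets. There 4 were 2 to 8 fold lower (*Prosalpha4T1*, *Prosalpha4T2*, *Prosbeta4R2* and *Prosbeta5R1*), beside 7.08% of all probe sets. Another 4 were less than 2 fold lower (*Prosalpha6T*, *Prosbeta2R1*, *Prosbeta2R2* and *Prosbeta4R1*). As 40% of all probe sets were in this last band, its count does not set the 10 genes apart. The 5 genes highly dependent in *aly* testes were thus spread over 3 bands in *Nxt1* testes, with *Prosalpha6T* at 1.70 fold, *Prosalpha4T2* at 5.63 fold, *Prosbeta5R1* at 6.82 fold and the other two past 16 fold. These bands are of the signals as deposited and moved with the scaling. The 2 comparisons share the control arrays.

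The mutants were then compared directly. Of the 10 genes 7 were higher in *Nxt1* than in *aly* testes, 1 was lower and 2 did not pass the test, where, by the same test, 20.6% of all probe sets were higher and 38.5% lower. The median difference of the 10 genes, *Nxt1* minus *aly*, was 1.91, and that of all probe sets was -0.18. *Prosalpha6T* showed the largest difference, 5.35 (SE 0.11, adjusted p = 3.87e-10), with 4911 ± 340 in *Nxt1* and 121 ± 16.4 in *aly* testes (SD, n = 3 arrays each). It was followed by *Prosbeta5R1* at 4.09, *Prosbeta4R1* at 3.46, *Prosalpha4T2* at 3.24, *Prosalpha4T1* at 2.31, *Prosbeta2R2* at 1.52 and *Prosbeta2R1* at 0.94. The *aly* signals of *Prosbeta5R1* and *Prosalpha4T2* were below the array median, so their differences may be understated. Those of *Prosalpha6T*, at 136.8, 122.1 and 104.0, lay little above the *aly* array medians of 98.4 to 100.1, so its difference may be understated too. For these 7 genes the order of the levels was *aly* below *Nxt1* below control, with no overlap between genotypes, and they passed as higher under each scaling tried. Among all probe sets, 22% had all 3 *Nxt1* arrays above all 3 *aly* arrays. *Prosalpha3T* was the exception among the genes that passed, at -0.71 (SE 0.15, adjusted p = 0.00308), with 54.1 ± 6.75 in *Nxt1* and 89.6 ± 21.1 in *aly* testes (SD, n = 3 arrays each). With arrays centred on *CG3927*, a spermatocyte transcript that the study used as its control gene in PCR assays, its difference was -0.35 and did not pass (adjusted p = 0.0648). *Prosbeta4R2* and *Prosbeta5R2* did not differ between the mutants beyond their spread. Their differences were -0.15 (95% interval -0.43 to 0.14, adjusted p = 0.340) and -0.06 (95% interval -0.38 to 0.25, adjusted p = 0.709). All 3 genes without a higher signal in *Nxt1* testes had *Nxt1* signals below the array median, and whether signals that low differ from no transcript was not tested.

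**Figure D2:**
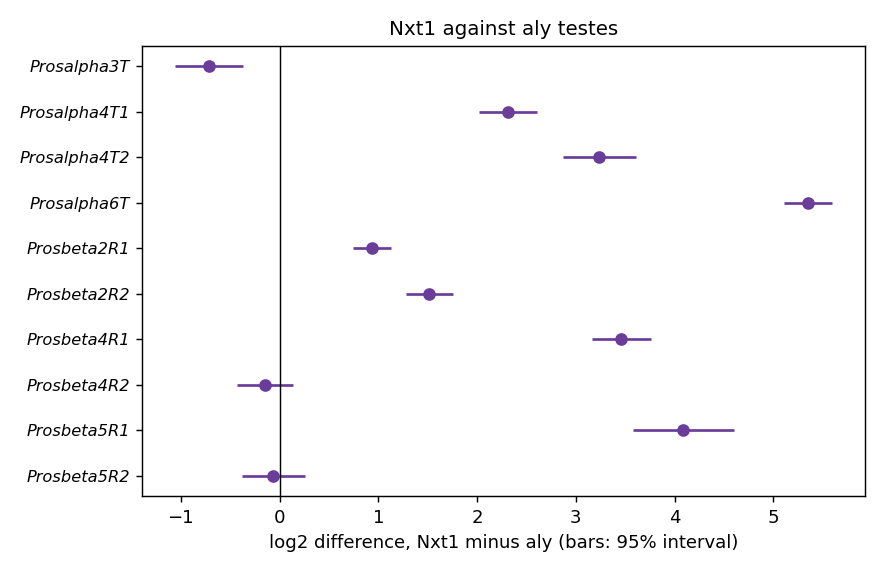
Log2 difference, *Nxt1* minus *aly*, of the 10 testis core particle genes, with points for limma estimates and bars for 95% intervals (3 arrays per genotype). The intervals of 7 genes lie above 0, that of *Prosalpha3T* lies below it, and those of *Prosbeta4R2* and *Prosbeta5R2* cross it.

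Paralogs of the same position were set against each other within arrays, which does not depend on how the arrays were centred. This comparison was chosen after the values were seen. Its exact two-sided permutation p over 3 against 3 arrays was 0.1 for each difference given, the smallest this design allows. *Prosalpha4T1* fell less than *Prosalpha4T2*, by a log2 difference of 0.97 (SE 0.14) in *Nxt1* and 1.89 (SE 0.20) in *aly* testes. *Prosbeta2R1* fell less than *Prosbeta2R2*, by 0.25 (SE 0.09) in *Nxt1* and 0.83 (SE 0.17) in *aly* testes. At these positions the order of the pair was the same in both mutants, and the gap, *Nxt1* minus *aly*, differed by -0.92 at alpha4 and -0.58 at beta2, being wider in *aly* testes. At beta4 and beta5 the comparison is given for *Nxt1* testes, where the first gene of each pair was above the array median on every array. *Prosbeta4R1* fell less than *Prosbeta4R2* there, by 1.55 (SE 0.12), and *Prosbeta5R1* fell less than *Prosbeta5R2*, by 2.40 (SE 0.20). In *aly* testes the same differences were -2.06 (SE 0.28) at beta4 and -1.75 (SE 0.11) at beta5. There *Prosbeta4R2*, *Prosbeta5R1* and *Prosbeta5R2* were below the array median on all 3 arrays, so their falls may be understated and no order of the pairs is read from these values.

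The general subunit of each position, which serves the proteasome of other cells, moved the other way from its paralogs in the signals as deposited. Of the 14 general core particle subunits 12 were measured, and as deposited all 12 were higher in both mutants, where 34.1% of all probe sets were higher in *Nxt1* and 44% in *aly* testes. This depended on the scaling, since the ribosomal protein probe sets themselves were higher in the mutants, by a median of 1.12 in *Nxt1* and 1.17 in *aly* testes. With arrays centred on them 5 of 12 subunits were higher in each mutant, 4 were lower in *Nxt1* and 7 were lower in *aly* testes. By this centring 11.2% of all probe sets were higher and 77.7% lower in *Nxt1* testes, and 13.0% were higher and 76.0% lower in *aly* testes. The 5 that were higher in both mutants with this centring and with that on *CG3927* were *Prosalpha4*, *Prosalpha6*, *Prosbeta2*, *Prosbeta4* and *Prosbeta5*. *Prosalpha6* had signals of 10539, 10499 and 11085 in *Nxt1* testes and 10006, 10572 and 10946 in *aly* testes, against 2099, 2219 and 1842 in control testes. It differed by 2.39 in *Nxt1* (SE 0.09, adjusted p = 5.35e-09) and by 2.36 in *aly* testes (SE 0.09, adjusted p = 3.32e-09). The 2 mutants differed by 0.03 for *Prosalpha6* (adjusted p = 0.795), and by 5.35 for its paralog *Prosalpha6T*.

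*Prosbeta4*, also among these 5, had signals of 8755, 8781 and 9530 in *Nxt1* testes and 10677, 10655 and 10329 in *aly* testes, against 2005, 2058 and 1954 in control testes. *Prosbeta2* differed by 2.34 in *Nxt1* and 2.20 in *aly* testes, *Prosbeta5* by 1.92 and 1.97, *Prosalpha4* by 1.48 and 1.87, and *Prosalpha3* by 1.17 and 0.97. *Prosalpha3*, the general partner of the paralog that fell most in *Nxt1* testes, had the smallest differences of these 6, and with arrays centred on ribosomal protein probe sets it was lower in *aly* testes, at -0.25. The 6 measured positions for which no testis paralog was listed here (*Prosalpha2*, *Prosalpha5*, *Prosalpha7*, *Prosbeta3*, *Prosbeta6* and *Prosbeta7*) differed by 0.49 to 1.14 in *Nxt1* and by 0.40 to 1.00 in *aly* testes. The 6 positions with a paralog differed by 1.17 to 2.39 in *Nxt1* and by 0.97 to 2.40 in *aly* testes. Their probe sets had a median signal of 2208 in control, 11042 in *Nxt1* and 10690 in *aly* testes. The corresponding medians of the positions without one were 7422, 12463 and 11603. The part of the unlike control signals in this contrast was not tested. This grouping was made after the values were seen and was given no test. Between the mutants the 12 general subunits differed by -0.39 to 0.35, with 3 higher in *Nxt1* testes, 2 lower and 7 not passing, where 20.6% of all probe sets were higher and 38.5% lower. With arrays centred on *CG3927* 10 of the 12 were higher in *Nxt1* testes and 0 lower, where 37.1% of all probe sets were higher and 13.4% lower.

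**Figure D3:**
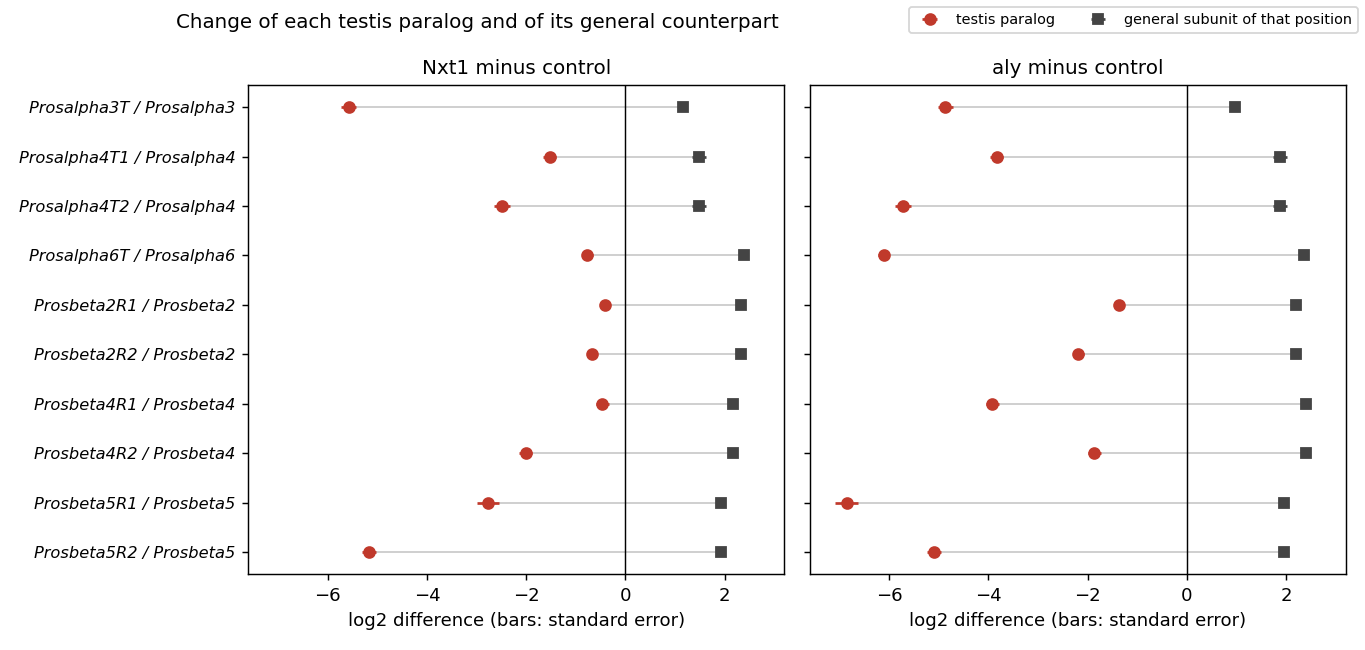
Log2 difference of each testis paralog (circles) and of the general subunit of its position (squares), *Nxt1* minus control at left and *aly* minus control at right, with standard errors from limma (3 arrays per genotype). As deposited, paralogs lie below 0 and general subunits above 0 in both panels (*Prosalpha3* at -0.25 in *aly* testes after ribosomal centring), and the paralogs reach further down in *aly* testes for all but *Prosalpha3T*, *Prosbeta4R2* and *Prosbeta5R2*.

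**Figure D4:**
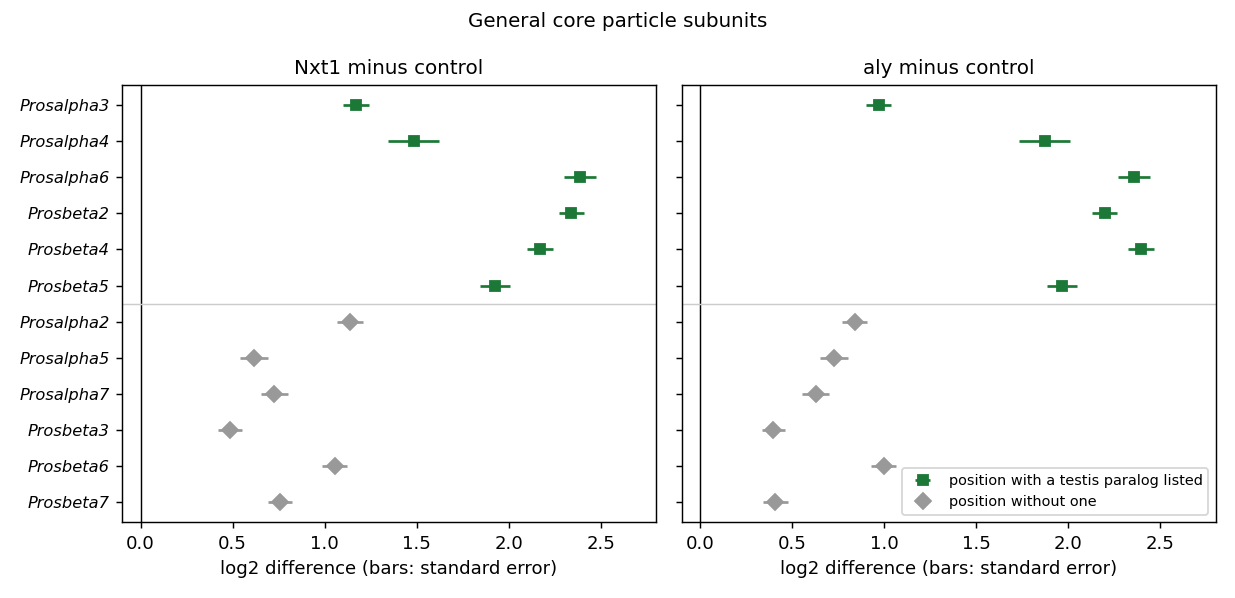
Log2 difference of the 12 measured general core particle subunits, with squares for positions with a listed testis paralog and diamonds for positions without one, and bars for standard errors (3 arrays per genotype). As deposited, squares lie between 0.97 and 2.40 and diamonds between 0.40 and 1.14, while after ribosomal centring 5 of the 12 subunits pass as higher in each mutant.

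The change of each paralog was also taken relative to its general counterpart on the same array, which again does not depend on the centring. Steps of RMA that act by signal level are not removed in this way. The paralog fell relative to the general subunit for 10 of 10 genes in both mutants, with no overlap between mutant and control arrays. On every mutant array each paralog lay below, and each general subunit above, all control arrays. The direction, the lack of overlap and the permutation p given below followed from this and are no separate test, so only the sizes are added. The 10 pairs use 6 general subunits, 4 of them in 2 pairs each. The median over the 10 pairs was -3.56 in *Nxt1* testes (range -7.09 for *Prosbeta5R2* to -2.63 for *Prosbeta4R1*) and -6.08 in *aly* testes (range -8.82 for *Prosbeta5R1* to -3.56 for *Prosbeta2R1*), where paralogs below the array median may have fallen further. The exact two-sided permutation p was 0.1 for each pair, the smallest that 3 against 3 arrays can give. *Prosalpha6T* over *Prosalpha6* was lower by 8.88 fold in *Nxt1* and by 355 fold in *aly* testes, where *Prosalpha6T* signals lay little above the array median. *Prosbeta2R1* over *Prosbeta2*, the pair with the smallest change in *aly* testes, was lower by 6.77 fold in *Nxt1* and by 11.8 fold in *aly* testes. Compared directly, the relative value was higher in *Nxt1* than in *aly* testes for 7 pairs and lower for *Prosalpha3T* over *Prosalpha3*, at -0.91 (SE 0.19). It overlapped between the mutants for *Prosbeta4R2* (0.08, SE 0.13, exact permutation p = 0.7) and *Prosbeta5R2* (-0.02, SE 0.18, exact permutation p = 0.9).

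The regulatory particle caps the barrel and feeds it unfolded protein. Of its 18 general subunits 14 were measured. All 14 were higher in *Nxt1* testes and 13 in *aly* testes, with medians of 1.17 and 1.14, beside 34.1% and 44% of all probe sets, and *Rpn6* in *aly* testes did not pass (0.13, adjusted p = 0.123). Centring on ribosomal proteins left 5 higher and 6 lower in *Nxt1* testes, beside 11.2% and 77.7% of all probe sets, and 2 higher and 6 lower in *aly* testes, beside 13.0% and 76.0%. By the larger of their differences in the 2 mutants, the leading members were *Rpt3* (1.82 in *Nxt1* and 2.19 in *aly* testes), *Rpn12* (1.13 and 1.98) and *Rpt4* (1.92 and 1.38). Of 5 other listed testis paralogs of proteasome subunits 3 were measured, all of the regulatory particle. *Rpt4R* was higher in both mutants under each scaling tried, by 1.60 in *Nxt1* and 1.63 in *aly* testes as deposited. *Rpt3R* was higher by 0.81 in *Nxt1* and 1.14 in *aly* testes, but by ribosomal centring it was lower in *Nxt1* testes (-0.32, adjusted p = 0.00244) and did not pass in *aly* testes (-0.08, adjusted p = 0.333). *Rpn12R* had signals of 3059, 3071 and 2864 in *Nxt1* testes and 7824, 7650 and 7748 in *aly* testes, against 5376, 5253 and 5116 in control testes, so it was lower in *Nxt1* (-0.81, adjusted p = 2.48e-06) and higher in *aly* testes (0.56, adjusted p = 3.67e-05). The sign in *aly* testes was turned by centring on ribosomal protein probe sets (-0.66) and on *CG3927* (-0.58), and that in *Nxt1* testes was not. *Prosalpha1R* shares its probe set with *Prosalpha1* and was, like *Rpt6R*, not analysed here.

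Of 5 listed activators and partners of the core particle 4 were measured. The pair with known roles in spermatid individualisation, *PI31* and *ntc*, fell in both mutants under each scaling tried. As deposited, 24.2% of all probe sets were lower in *Nxt1* and 20% in *aly* testes. *PI31*, which encodes a proteasome regulator, had signals of 6016, 6122 and 6317 in *Nxt1* testes and 4077, 4490 and 4220 in *aly* testes, against 9200, 9680 and 8908 in control testes. It differed by -0.59 (adjusted p = 5.10e-05) in *Nxt1* and by -1.12 (adjusted p = 2.71e-07) in *aly* testes. *ntc* encodes Nutcracker, an F-box protein that binds PI31 and is needed for caspase activation in spermatids. It had signals of 1639, 1372 and 1541 in *Nxt1* testes and 2581, 2139 and 2557 in *aly* testes, against 6967, 7412 and 6836 in control testes. The fall of *ntc* was larger in *Nxt1* (-2.22, adjusted p = 2.48e-08) than in *aly* testes (-1.55, adjusted p = 2.74e-07), and the mutants differed by -0.68 (adjusted p = 0.000316), which did not pass with arrays centred on *CG3927* (-0.31, adjusted p = 0.0587). *REG*, an activator of the core particle, did not pass in either mutant, at -0.15 (adjusted p = 0.190) in *Nxt1* and -0.0032 (adjusted p = 0.979) in *aly* testes, and *Pomp*, an assembly factor, did not either, at 0.25 (adjusted p = 0.126) and -0.08 (adjusted p = 0.636). Both were lower in both mutants once arrays were centred on *CG3927* or on ribosomal probe sets. By these centrings 69.1% to 77.7% of all probe sets were lower, so these calls do not set the 2 genes apart.

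Several lists of cell type markers moved with genotype. Of 21 listed genes transcribed in spermatids 16 were measured. As deposited all 16 were lower in both mutants, where 24.2% of all probe sets were lower in *Nxt1* and 20% in *aly* testes. Their median differences were -3.11 and -5.07. The smallest were -0.25 for *m-cup* and -0.28 for *f-cup* in *Nxt1* testes, and -0.33 for *m-cup* and -0.44 for *soti* in *aly* testes. With arrays centred on array medians 15 of the 16 were lower in *aly* testes, beside 17.6% of all probe sets. The 16 summed to 24177 to 26405 in *Nxt1* and 16049 to 17217 in *aly* testes, against 103448 to 105843 in control testes. Of 9 listed spermatocyte genes 8 were measured, with sums of 14919 to 15130 in *Nxt1* and 34667 to 37096 in *aly* testes, against 7864 to 8466 in control testes. As deposited 6 of the 8 were higher and none lower in *Nxt1* testes, but with ribosomal centring 3 were higher and 4 lower. In *aly* testes 7 were higher and 1, *aly* itself, was lower as deposited, and with ribosomal centring 6 were higher and 2 lower. Among all probe sets 34.1% were higher in *Nxt1* and 44% in *aly* testes as deposited. With ribosomal centring 11.2% and 13.0% were higher, and 77.7% and 76.0% lower. Of 12 listed accessory gland genes 11 were measured. As deposited 5 were higher and 6 did not pass in *Nxt1* testes, and 3 were higher and 8 did not pass in *aly* testes. Their sums were 45973 to 140505 in *Nxt1* and 37757 to 90304 in *aly* testes, against 1229 to 31691 in control testes. The lowest of these was control replicate 1, and leaving it out shifted the differences of the 10 genes from control by at most 0.052. The 4 listed ejaculatory duct and bulb genes were all measured, and in each mutant 2 were higher and 2 did not pass. Their differences ranged from 0.79 to 5.35 in *Nxt1* and from -1.88 to 6.15 in *aly* testes. They summed to 8906 to 47626 in *Nxt1* and 11803 to 30494 in *aly* testes, against 222 to 6082 in control testes. Of 6 listed fat body genes 5 were measured. None passed in *Nxt1* testes, and 2 were higher and 3 did not pass in *aly* testes. Their sums were 422 to 1740 in *Nxt1* and 4612 to 6112 in *aly* testes, against 379 to 560 in control testes. Of 6 listed early germline genes 4 were measured, with 3 higher and 1 lower in *Nxt1* and 3 higher and none lower in *aly* testes. Sums of the other lists were 3554 to 3795 in *Nxt1* and 4327 to 4581 in *aly* testes, against 2297 to 2687 in control testes, for these 4. For 5 of 6 hub and cyst cell genes, of which 2 were higher and 1 lower in *Nxt1* and 1 higher and 1 lower in *aly* testes, they were 1611 to 1823 in *Nxt1* and 1101 to 1141 in *aly* testes, against 1296 to 1354 in control testes. For 5 of 8 sheath muscle genes they were 3749 to 5753 in *Nxt1* and 4705 to 5487 in *aly* testes, against 3672 to 3914 in control testes. Of these 5 genes 2 were higher and 3 did not pass in *Nxt1* testes, and 3 were higher and 1 lower in *aly* testes. No marker had a signal of 0, since RMA gives none. The part of these shifts in the results for the core particle genes was not tested.

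As a description, the genes with the nearest pattern were found for each of the 10 by Euclidean distance between gene-centred log2 signals over the 9 arrays, with no p. None of the 3 nearest genes of any paralog was another of the 10. *robl37BC*, a relative of the dynein light chain roadblock, was nearest to *Prosalpha3T* (distance 0.377), and *APP-BP1*, a subunit of the enzyme that activates the ubiquitin-like protein Nedd8, was nearest to *Prosbeta2R1* (0.273). *Treh*, which encodes trehalase, was nearest to *Prosbeta2R2* (0.278), and *kat-60L1*, which encodes a relative of the microtubule-severing protein katanin, was nearest to *Prosbeta4R1* (0.396). The nearest genes of the other six were *CG12589* for *Prosalpha4T1* (0.494), *CG14384* for *Prosalpha4T2* (0.340), *CG14540* for *Prosalpha6T* (0.356), *CG10700* for *Prosbeta4R2* (0.311), *CG32148* for *Prosbeta5R1* (0.548) and *CG2104* for *Prosbeta5R2* (0.477). Among the 10 genes themselves the closest pair was *Prosalpha3T* and *Prosbeta5R2* at 0.862, the pair that was highly dependent in both mutants.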

How the data were processed

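The deposited table holds linear signal intensities that the authors made with GCOS and RMA, per the submitters' processing notes, and the program versions are not given in the sources used here. It has 18952 probe sets, of which 183 control probe sets were left out. Of the 18769 fitted, 13647 have 1 gene symbol, 402 several and 4720 none, and the gene ID of 13544 was found in the reference table (Release 6), used for names and gene order only. Where a gene had several probe sets, that with the highest mean log2 signal was used. The log2 of each intensity was taken with nothing added. Linear models with 1 mean per genotype over all 9 arrays were fitted in R 4.3.3 with lmFit and eBayes of limma 3.58.1, and p-values were adjusted by Benjamini-Hochberg over all 18769 probe sets. The script was tested on simulated data. Differences within arrays were compared by exact two-sided permutation tests over arrays, with Python 3.11.15. The members and lists were chosen with earlier results of these data known. The genes named were the 10 paralogs, the general subunits, up to 3 genes with the largest differences from each further proteasome list and the nearest genes by pattern. *Rpn6*, *REG*, *Pomp* and the markers *m-cup*, *f-cup*, *soti* and *aly* were named after their values were seen. Other settings tried were arrays centred on *CG3927*, on ribosomal proteins or on array medians, a filter on dim probe sets (a mean log2 of 6 in at least 1 genotype, which keeps 12531), leaving out each array, a replicate block, eBayes with trend and robust, averaging on the linear scale, the mean over the probe sets of a gene and a fold threshold on every pair of arrays. Probe sequences were not used here, so binding of a probe set to transcripts of a paralog was not checked.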

Additional observations from a re-analysis of the deposited data

How the results depend on the processing

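All 10 genes were lower than control in both mutants under each alternative run, except that 9 passed in *Nxt1* testes without *Nxt1* replicate 3. The median difference of the 10 genes moved with the scaling. It was -2.89 in *Nxt1* and -5.62 in *aly* testes with arrays centred on ribosomal protein probe sets, where 77.7% and 76.0% of all probe sets were lower. With centring on *CG3927* it was -2.54 in *Nxt1* and -5.53 in *aly* testes, where 69.1% and 74.1% of all probe sets were lower. The count of general core particle subunits that were higher, 12 in each mutant, was 5 in *Nxt1* and 5 in *aly* testes with ribosomal centring. By that centring 11.2% and 13.0% of all probe sets were higher. With *CG3927* the count was 8 in *Nxt1* and 5 in *aly* testes, beside 16.8% and 14.3% of all probe sets. Lower with *CG3927* were 1 subunit in *Nxt1* and 5 in *aly* testes. These centrings shift the median of all probe sets by -1.13 (ribosomal) and -0.77 (*CG3927*) in *Nxt1* testes and by -1.22 and -1.14 in *aly* testes, by construction. The fold bands moved too. With ribosomal centring *Prosalpha6T* (-1.89), *Prosbeta2R1* (-1.55), *Prosbeta2R2* (-1.80) and *Prosbeta4R1* (-1.59) were more than 2 fold lower in *Nxt1* testes. *Prosalpha4T2* (-3.62), *Prosbeta5R1* (-3.90) and *Prosbeta4R2* (-3.14) were then 8 to 16 fold lower there. In *aly* testes *Prosalpha4T1* (-5.05) and *Prosbeta4R1* (-5.14) were then more than 16 fold lower, and *Prosbeta2R2* (-3.40) and *Prosbeta4R2* (-3.08) were 8 to 16 fold lower. With *CG3927* these genes changed band alike in each mutant, except *Prosbeta4R2* in *Nxt1* testes (-2.78).

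Some signs turned among the 10 genes and the general subunits of their 6 positions. For *Prosalpha3*, *aly* minus control, 0.97 as deposited, was -0.25 with ribosomal centring and -0.17 with *CG3927*. The other turns in this set were in *Nxt1* minus *aly*. With ribosomal centring they were 0.026 for *Prosbeta5R2* and 0.048 for *Prosbeta5*, and with *CG3927* they were 0.22 for *Prosbeta4R2*, 0.30 for *Prosbeta5R2*, 0.13 for *Prosbeta4* and 0.32 for *Prosbeta5*. With centring on array medians the difference of *Prosalpha6* was -0.10. When each array was left out in turn, the difference ranged from -0.24 to 0.085 for *Prosbeta5R2*, from -0.0071 to 0.058 for *Prosalpha6* and from -0.078 to 0.0038 for *Prosbeta5*. In the same way 8 to 9 of the 10 genes passed between the mutants, 9 without *aly* replicate 3 (*Prosbeta4R2* at -0.28, adjusted p = 0.0493), and 5 to 6 were 16 fold or more lower in *aly* testes. Signs of subunits at other positions and of the regulatory particle also turned in mutant minus control, as with *Prosalpha2* in *aly* testes, at -0.38 with ribosomal centring. The cause of these changes was not tested.

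The fit with replicate number as a block gave the same counts, 10, 10 and 8 for the 10 genes and 12 and 12 for the general subunits, and changed 0 of 48 single results. Deviations from the genotype means correlated at -0.23 to 0.35 for the 9 pairs of arrays with the same number and at -0.35 to 0.28 for the 18 others. With 3 arrays per genotype these deviations depend on each other, so the ranges cannot show whether the numbers pair the arrays. The pairs of paralogs and the grouping of general subunits by position were chosen after seeing the data. With 3 arrays per genotype the precision is limited, and whether signals below the array median still follow the transcript level was not tested.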
